A study of Homo sapiens with 6 samples.

Results

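Topoisomerase genes and genes that act on trapped topoisomerases or on topoisomerase drugs were described in ATAC-seq data, in which a transposase cuts accessible DNA, from U2OS cells, an established human osteosarcoma line. The members were TOP2A, TOP2B, TOP1, TDP2, ZNF451 and ABCB1, and every peak within 5 kb of these genes in hg19 was taken. Peaks of all libraries that overlapped were merged, which gave 41 regions at the 6 genes, of 248031 regions in all. The compared groups were CRAMP1-KO U2OS cells, in which the gene for the histone H1 regulator CRAMP1 is knocked out, with 3 libraries, and WT U2OS cells, with 3 libraries. Cells of both genotypes were grown in the same serum-containing medium, and no topoisomerase inhibitor is named in the labels. Each library started from 50000 cells and was tagmented for 30 minutes and amplified for 7 cycles. The labels state neither whether the replicates were separate cultures nor whether the knockout is 1 clone, so a p-value here reflects library-to-library spread, possibly of technical origin.

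Topoisomerases release the torsion that builds up when DNA is copied or transcribed. TOP2A and TOP2B pass one duplex through a break in another and stay covalently bound to the broken ends meanwhile, TOP2A mainly in dividing cells and TOP2B also in resting cells, whereas TOP1 nicks a single strand. Poisons such as etoposide hold type II enzymes on the break. TDP2 is the phosphodiesterase that frees the tyrosine of a trapped enzyme from the DNA end, ZNF451 (also called ZATT) is a SUMO ligase that prepares trapped type II enzymes for TDP2, and ABCB1 is the P-glycoprotein pump that carries many such drugs out of the cell. The title of the series ties CRAMP1 to tolerance of topoisomerase II inhibitors, so the comparison asks whether the chromatin at these genes differs without CRAMP1. Accessibility of a gene is not its expression, and neither RNA nor protein was measured here.

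The promoters of TOP2A, of TOP2B and of both starts of ABCB1 are printed because these genes divide by promoter: TOP2A and TOP2B are the targets of the drugs, and only the proximal start of ABCB1 lay in a peak. Each sequence is the RefSeq reference of GRCh38.p14, ends at the base before the annotated start, and runs 5′ to 3′ on the gene's strand, which is the minus strand in all of them. Capitals mark CCAAT and its reverse complement ATTGG, the pentamer of CCAAT boxes.
TOP2A, chr17:40417897-40418146: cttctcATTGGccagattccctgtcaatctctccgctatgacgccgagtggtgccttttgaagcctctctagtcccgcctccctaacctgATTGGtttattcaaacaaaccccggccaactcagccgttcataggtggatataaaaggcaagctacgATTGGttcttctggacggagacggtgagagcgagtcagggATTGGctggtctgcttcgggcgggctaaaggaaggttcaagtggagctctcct
TOP2B, chr3:25664908-25665157: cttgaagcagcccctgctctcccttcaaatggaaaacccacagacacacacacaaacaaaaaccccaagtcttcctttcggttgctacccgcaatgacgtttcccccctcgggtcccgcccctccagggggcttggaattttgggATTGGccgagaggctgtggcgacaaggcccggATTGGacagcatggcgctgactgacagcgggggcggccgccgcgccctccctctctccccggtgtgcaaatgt
ABCB1 distal start, chr7:87713296-87713545: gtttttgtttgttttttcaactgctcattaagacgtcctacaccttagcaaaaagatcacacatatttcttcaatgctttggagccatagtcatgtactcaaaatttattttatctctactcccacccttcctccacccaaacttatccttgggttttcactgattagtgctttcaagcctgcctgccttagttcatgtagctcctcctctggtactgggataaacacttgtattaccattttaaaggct
ABCB1 proximal start, chr7:87600885-87601134: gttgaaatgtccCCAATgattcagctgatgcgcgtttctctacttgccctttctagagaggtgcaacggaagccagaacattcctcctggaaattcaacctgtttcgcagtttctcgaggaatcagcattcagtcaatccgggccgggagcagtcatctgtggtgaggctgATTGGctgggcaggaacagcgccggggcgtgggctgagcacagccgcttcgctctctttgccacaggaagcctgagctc
The TOP2A promoter held 4 of these pentamers, all as ATTGG, and 1 TATAAA. The TOP2B promoter held 2, and the proximal ABCB1 promoter also held 2. The distal ABCB1 promoter held 0. The 250 bases before TOP1, TDP2 and ZNF451, and before another TOP2B start 0.535 kb further in, held 0 as well. Over 35116 RefSeq promoters of the same length, searched on both strands, 32% held at least 1 of these pentamers and 2.93% held 3 or more. GGGCGG or its complement CCGCCC, the core of a GC box, occurred 4 times before ZNF451, 3 times before TDP2, 2 times before TOP2B and 1 time each before TOP2A and TOP1, but in neither ABCB1 promoter, against 42.6% of all promoters with at least 1. The G and C content was 39.2% at the distal ABCB1 start and 55.6% at the proximal one, and 53.2% at TOP2A, where the median of all promoters was 58%. These are letters in fixed windows and not sites shown to be bound.

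The deposited lists differed in size, with 133756, 139242 and 157997 peaks in CRAMP1-KO and 198875, 151646 and 132686 in WT. WT replicate 1 stood apart, with a median fold enrichment of 4.25 where the other libraries had 5.96 to 6.26. Total reads are unknown. The fold enrichment and the p-value of a peak together fix the height of the stack at its summit, called the pileup here. Whether it counts fragments or reads is unknown, since the calling settings are not given. The median pileup over the 92505 regions with a peak in all 6 libraries was 61, 62 and 96 in CRAMP1-KO and 97, 87 and 53 in WT. The relative pileup is the pileup divided by this median. Log2 changes are CRAMP1-KO minus WT on that scale, were tested with limma over all 92505 regions and were called at a Benjamini-Hochberg adjusted p of at most 0.05.

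The strongest region of each gene had a peak in all 6 libraries. Of the 41 regions, 19 had a peak in all 6 libraries (46.3%, against 37.3% of all regions). No region had a peak in 3 of 3 CRAMP1-KO libraries and 0 of 3 WT libraries, a pattern shown by 0.767% of all regions, and none had the opposite pattern, shown by 1.14%. A peak in 1 library only was found in 15 regions (36.6%, against 30.7% of all regions), and in 8 of them the library was WT replicate 1. The remaining 7 regions had a peak in 2 to 5 libraries.

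Peaks within 500 bp of the start were found at 5 of the 6 genes in all 6 libraries, and all 5 were strong, with a pileup between 2.57 and 7.70 times the library median. None of the 5 changed by the test, but at each the 3 CRAMP1-KO libraries lay below the 3 WT libraries. Their log2 changes had a median of -0.26 and ran from -0.31 to -0.15.

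At TOP2A, chr17:38573561-38574837, the pileup was 189, 193 and 284 in CRAMP1-KO and 326, 339 and 181 in WT. Relative to the library median this was 3.10, 3.11 and 2.96 in CRAMP1-KO and 3.36, 3.90 and 3.42 in WT, so that the CRAMP1-KO libraries were close together and all lower. The log2 change was -0.22 (SE 0.11, limma adjusted p = 0.20). The fold enrichment was 12.9 in each CRAMP1-KO library and 15.59, 15.95 and 13.79 in WT, again without overlap, while the peak width was 1209 ± 58.5 bp in CRAMP1-KO and 1224 ± 46.7 bp in WT (SD, n = 3 each).

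TOP2B had a broader start region, chr3:25704987-25706974, which covers both annotated starts. Its pileup was 171, 170 and 250 in CRAMP1-KO and 299, 267 and 154 in WT, or 2.80, 2.74 and 2.60 times the library median in CRAMP1-KO and 3.08, 3.07 and 2.91 in WT. The difference was the smallest of the 5, with a log2 change of -0.15 (SE 0.11, limma adjusted p = 0.34). The fold enrichment was 14.4 ± 0.351 in CRAMP1-KO and 15.8 ± 0.456 in WT (SD, n = 3 each).

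TOP1, the type I enzyme, showed the widest gap, at chr20:39656951-39658445. The pileup was 201, 223 and 286 in CRAMP1-KO and 376, 354 and 224 in WT, which is 3.30, 3.60 and 2.98 times the library median in CRAMP1-KO and 3.88, 4.07 and 4.23 in WT. The log2 change was -0.31 (SE 0.12, limma adjusted p = 0.092). With a variance prior that follows signal strength, the same change passed the threshold (limma adjusted p = 0.019).

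The start of TDP2, chr6:24666577-24667609, is shared with ACOT13, an acyl-CoA thioesterase gene that runs the other way from a start 0.178 kb upstream, so its signal cannot be given to one gene. The pileup was 157, 191 and 255 in CRAMP1-KO and 314, 282 and 182 in WT. The relative pileup was 2.57, 3.08 and 2.66 in CRAMP1-KO and 3.24, 3.24 and 3.43 in WT (log2 change -0.26, SE 0.12, limma adjusted p = 0.14). It too passed with the prior that follows strength (limma adjusted p = 0.046). Under that prior 14370 of all 92505 shared regions were called lower. The fold enrichment overlapped here, at 16.12, 19.91 and 16.95 in CRAMP1-KO and 21.1, 19.5 and 18.5 in WT.

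ZNF451 had the strongest region of all 6 genes and the narrowest of the 5 start regions, chr6:56954634-56955431. Its pileup was 343, 398 and 590 in CRAMP1-KO and 644, 670 and 398 in WT. The relative pileup was 5.62, 6.42 and 6.15 in CRAMP1-KO and 6.64, 7.70 and 7.51 in WT (log2 change -0.26, SE 0.12, limma adjusted p = 0.14). The width was 773 ± 25.7 bp in CRAMP1-KO and 761 ± 22.7 bp in WT (SD, n = 3 each).

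**Figure D1:**
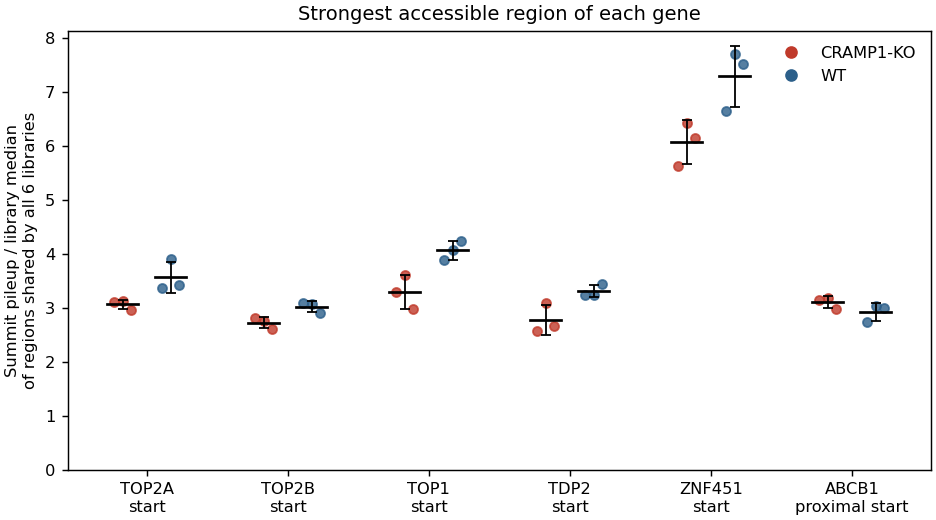
Summit pileup divided by the library median of the shared regions (vertical axis) for the strongest region of each gene, with points for libraries, thick lines for means and bars for SD (n = 3), CRAMP1-KO in red and WT in blue. At the 5 gene starts all CRAMP1-KO points lie below all WT points, and at the proximal start of ABCB1 the genotypes overlap.

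The lower values of the 5 starts are to be read against strong regions in general. Among the 12558 shared regions that were at least as strong as the weakest of the 5 starts, the median log2 change was -0.17, and in 37.6% all CRAMP1-KO libraries lay below all WT libraries; 7.84% were called lower. Over all shared regions 23.7% had the CRAMP1-KO libraries below the WT libraries and 14.4% above, and 9.78% were called lower and 7.34% higher. That excess of lower calls depended on the scaling: 5393 regions were called higher and 5023 lower with scaling by the lowest background, and 7398 higher and 7293 lower with quantile scaling, which gives every library the same distribution of pileups and was chosen after seeing the data. In 10 equal classes of strength, TOP2A, TOP2B and TDP2 fell in class 9, with a median of -0.14, and TOP1 and ZNF451 in the strongest class, with a median of -0.17. Within their class, from 16% (TOP1) to 46.8% (TOP2B) of regions had a lower log2 change. Under quantile scaling the 5 changes ran from -0.16 to -0.03, with a median of -0.09. The lower pileup at these starts therefore lay within the range of other strong regions.

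**Figure D2:**
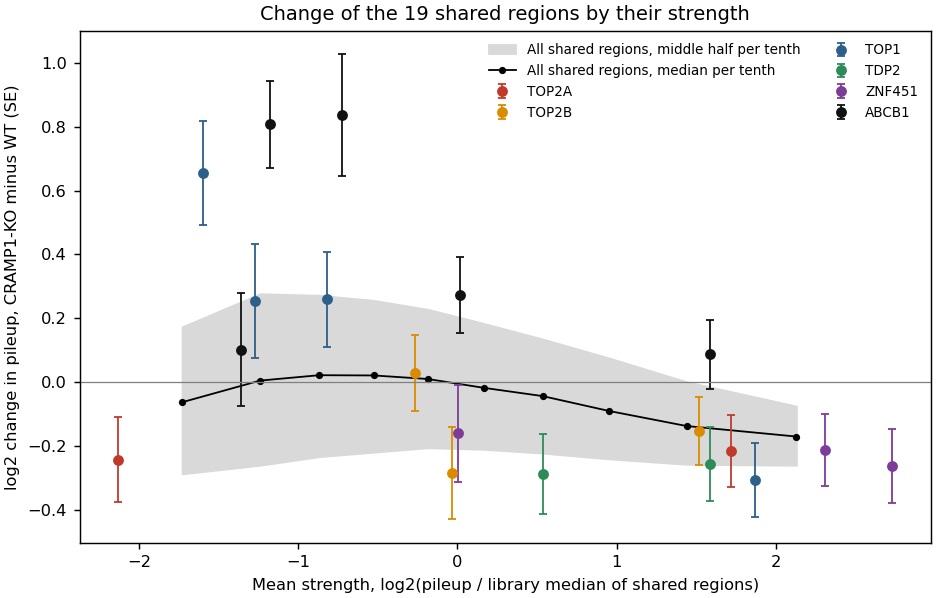
Log2 change in pileup, CRAMP1-KO minus WT (vertical axis, bars SE), against the mean log2 relative pileup (horizontal axis) of the 19 member regions shared by all libraries, with the median (line) and interquartile range (grey) of all shared regions in 10 classes of strength. At the right, the starts of TOP2A, TOP2B, TOP1, TDP2 and ZNF451 lie below the median of their class and the proximal ABCB1 start above it, and 3 weak regions, 2 of ABCB1 and 1 of TOP1, lie above the others at 0.66 to 0.84.

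ABCB1 differed from the other 5 genes in its layout. No library had a peak within 500 bp of the start that bounds the gene in hg19, here called the distal start, and the nearest peak lay 10.8 kb inside the gene. The strongest region, chr7:87229510-87230504, lay 112 kb downstream and within 0.094 kb of the position of the proximal RefSeq start, matched by its distance from the distal one. The match is approximate, since the length of ABCB1 in hg19 and in RefSeq differed by 0.889 kb. The pileup of this region was 192, 197 and 286 in CRAMP1-KO and 265, 264 and 159 in WT. The relative pileup was 3.15, 3.18 and 2.98 in CRAMP1-KO and 2.73, 3.03 and 3.00 in WT, which overlapped (log2 change 0.09, SE 0.11, limma adjusted p = 0.60). The width was 965 ± 36.8 bp in CRAMP1-KO and 964 ± 12.5 bp in WT (SD, n = 3 each). The 5 other strongest regions were lower in CRAMP1-KO without being called, and this one was not lower. The contrast between them was not tested. Of the regions in the class of strength of the proximal ABCB1 start, 85% had a lower log2 change.

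The 3 called regions were weak sites inside genes, and all 3 were higher in CRAMP1-KO (3 of 19, against 7.34% of all shared regions called higher; 0 were called lower). Of these, 2 were in ABCB1. At chr7:87331653-87331901, 10.8 kb from the distal start, the pileup was 32, 38 and 60 in CRAMP1-KO and 36, 31 and 15 in WT. Relative to the library median it was 0.52, 0.61 and 0.62 in CRAMP1-KO and 0.37, 0.36 and 0.28 in WT, without overlap. The log2 change was 0.81 (SE 0.14, limma adjusted p = 0.0039), a 1.75-fold rise. The fold enrichment was 7.87, 9.69 and 12.0 in CRAMP1-KO and 6.04, 6.57 and 4.5 in WT, and the width was 231, 247 and 239 bp in CRAMP1-KO and 215, 203 and 174 bp in WT, both without overlap. The solved background here was the lowest of its library in all 6 libraries, so the fold enrichment is the same pileup on another scale.

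At chr7:87204717-87205320, 25.1 kb past the proximal start, the pileup was 55, 41 and 85 in CRAMP1-KO and 46, 50 and 18 in WT. The relative pileup was 0.90, 0.66 and 0.89 in CRAMP1-KO and 0.47, 0.57 and 0.34 in WT (log2 change 0.84, SE 0.19, limma adjusted p = 0.014, a 1.79-fold rise). All CRAMP1-KO libraries were higher, with WT replicate 3 the lowest. The fold enrichment overlapped, at 10.6, 10.3 and 12.8 in CRAMP1-KO and 7.67, 10.5 and 5.35 in WT, and the solved background exceeded the lowest of its library only in CRAMP1-KO, at 4.30, 3.06 and 5.71 against lowest values of 3.19, 3.02 and 4.08. A neighbouring region about a kilobase further on was not called (log2 change 0.10, SE 0.18, limma adjusted p = 0.72). At chr7:87193536-87194034 the relative pileup was 1.02, 1.15 and 1.18 in CRAMP1-KO and 0.93, 0.84 and 1.0 in WT, without overlap but not called (log2 change 0.27, SE 0.12, limma adjusted p = 0.14).

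The called region of TOP1, chr20:39701020-39701399, lay 43.7 kb into the gene. Its pileup was 26, 29 and 34 in CRAMP1-KO and 28, 18 and 16 in WT, so the call rests on low pileups. The relative pileup was 0.43, 0.47 and 0.35 in CRAMP1-KO and 0.29, 0.21 and 0.30 in WT (log2 change 0.66, SE 0.16, limma adjusted p = 0.021, a 1.58-fold rise). The fold enrichment was 6.44, 7.45 and 6.88 in CRAMP1-KO and 4.73, 3.90 and 4.78 in WT, without overlap, while the width overlapped. Here too the background was the lowest of each library, so the fold enrichment is the pileup on another scale. This call was lost without CRAMP1-KO replicate 1 (limma adjusted p = 0.056), without CRAMP1-KO replicate 2 (limma adjusted p = 0.069) and without WT replicate 2 (limma adjusted p = 0.067), whereas both ABCB1 calls held without any single library. The other weak regions of TOP1, at 19 and 29.8 kb, had log2 changes of 0.25 (SE 0.18) and 0.26 (SE 0.15) and were not called (limma adjusted p = 0.34 and 0.24). None of the 3 called regions was among those with a −log10 q of at least 10 in every library, so the test under that limit does not include them.

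**Figure D3:**
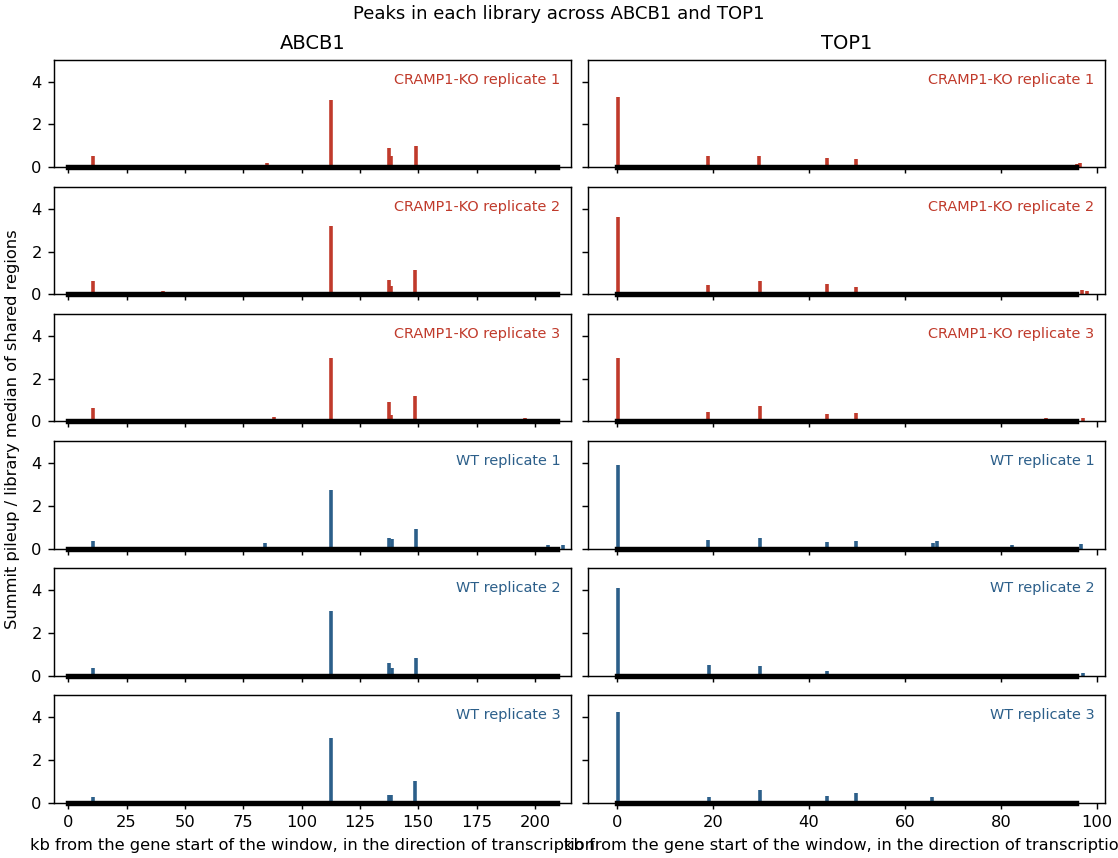
Peaks across ABCB1 (left) and TOP1 (right) in each library, CRAMP1-KO above WT, as lines at the distance in kb from the gene start of the window (horizontal axis) with a height equal to the pileup divided by the library median of the shared regions (vertical axis); the black bar is the gene. The tallest line of ABCB1 stands 112 kb into the gene and the tallest of TOP1 at its start, in all 6 libraries.

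The surroundings of ABCB1 and TOP1 were also higher in CRAMP1-KO. Of the 37 shared regions within 2 Mb of ABCB1, 21.6% were called higher and none lower, with a median log2 change of 0.26. Around TOP1 the median was 0.14 over 99 regions, with 22.2% called higher and 6.06% lower. Around TOP2A and TOP2B the medians were -0.14 and -0.12, around TDP2 -0.02 and around ZNF451 0.04. Around ZNF451 14.1% were also called higher and 1.18% lower. The shares called higher and lower were 1.27% and 11.7% around TOP2A, 4.26% and 11.7% around TOP2B, and 3.42% and 4.27% around TDP2. Over all shared regions they were 7.34% and 9.78%. The part of these wider shifts in the values of single regions was not tested.

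The widths gave no call at any of the 19 shared regions, where 0.108% of all shared regions were called. In covered bases, 5 of the 19 were wider in all CRAMP1-KO libraries than in all WT libraries and none was narrower. By the same measure this held for 19.2% and 3.03% of all shared regions. These bases were not divided by the library median width, which was 609, 586 and 656 bp in CRAMP1-KO and 598, 590 and 506 bp in WT. The part of that median in the order of the libraries was not tested, whereas the log2 changes of width are on centred values. Besides the called ABCB1 regions, the 5 included a TOP1 region at 19 kb and a pair of regions at the starts of neighbouring genes inside the windows. The region at the start of KIAA0319, a gene linked to reading ability that lies next to TDP2, covered 1323, 1399 and 1369 bp in CRAMP1-KO and 1163, 1165 and 1133 bp in WT (log2 change 0.11, SE 0.11, limma adjusted p = 0.71). The region at the start of BAG2, a co-chaperone gene next to ZNF451, covered 1435, 1351 and 1190 bp in CRAMP1-KO and 1087, 1028 and 965 bp in WT (log2 change 0.24, SE 0.13, limma adjusted p = 0.54). In relative pileup all CRAMP1-KO libraries lay below all WT libraries at both, and neither was called, with log2 changes of -0.29 (SE 0.13, limma adjusted p = 0.13) and -0.21 (SE 0.11, limma adjusted p = 0.21).

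Each gene with 5 kb on either side was also taken as a single window. The covered share, the bases under peaks in the window per 1000000 bases under peaks in the library, differed without overlap in 1 of 6 windows. For TOP2A it was 17.6, 20.3 and 20.3 in CRAMP1-KO and 22.2, 23.5 and 23.3 in WT, with means of 19.4 ± 1.55 in CRAMP1-KO and 23 ± 0.70 in WT (SD, n = 3 each; two-sided exact permutation p = 0.1, the smallest possible with 3 against 3). In 100-kb tiles of the genome that hold a peak, 7.88% were lower without overlap in covered share. The tiles are only a rough yardstick, since the windows vary in length and that of TOP2A spans 39.4 kb. A peak also counts whole in the tile of its summit but is cut at the edge of a gene window. The TOP2A difference was -3.58 with 5 kb of flank and -0.23 without any flank, where the genotypes overlapped. They also overlapped with 2 kb of flank, at a difference of -2.06, with lists of equal length, at -1.15, and with peaks of −log10 q of at least 10, at -0.71. They did not overlap with peaks of −log10 q of at least 5, at -5.73, or when any single library was left out, at -4.04 to -2.68. The difference came with a weak region 31.1 kb from the start, past the 3′ end of the gene, which covered 235, 369 and 407 bp in CRAMP1-KO and 496, 499 and 392 bp in WT, and with another that had a peak only in WT replicates 1 and 2. The promoter peak of TOP2A, in contrast, was of like width in both genotypes.

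For ABCB1 the covered share was 34.7 ± 0.661 in CRAMP1-KO and 30.0 ± 3.85 in WT (SD, n = 3 each; exact permutation p = 0.2), and the genotypes touched only through WT replicate 1, at 34.2, and CRAMP1-KO replicate 2, also at 34.2. Without flank the ABCB1 difference was 5.70 and the genotypes did not overlap. For TOP2B the share was 33.2 ± 3.20 in CRAMP1-KO and 30.9 ± 2.26 in WT (SD, n = 3 each; exact permutation p = 0.4). The differences at TOP1, TDP2 and ZNF451 also lay within the spread, with exact permutation p-values from 0.5 to 0.6.

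**Figure D4:**
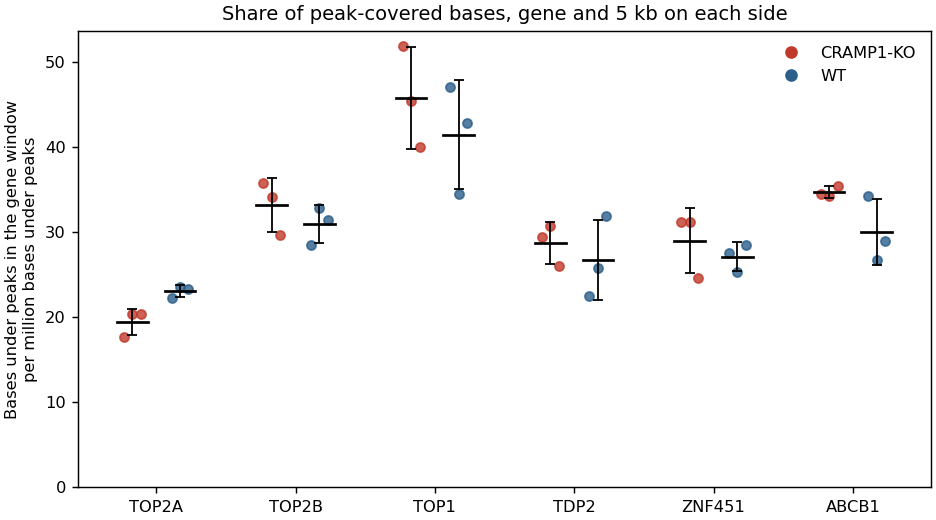
Bases under peaks in each gene window per 1000000 bases under peaks in the library (vertical axis), with points for libraries, thick lines for means and bars for SD (n = 3), CRAMP1-KO in red and WT in blue. TOP2A is the window in which all CRAMP1-KO points, up to 20.3, lie below all WT points, from 22.2.

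The number of peaks in the window per 10000 peaks of the library was higher without overlap in 2 of 6 windows, where 9.44% of 100-kb tiles showed this. These tiles again differ in size from the windows. TOP2B held 4, 5 and 5 peaks in CRAMP1-KO and 4, 4 and 3 in WT, a share of 0.325 ± 0.0309 per 10000 in CRAMP1-KO and 0.230 ± 0.0315 in WT (SD, n = 3 each; exact permutation p = 0.1). ABCB1 held 6, 6 and 8 peaks in CRAMP1-KO and 8, 5 and 5 in WT, a share of 0.462 ± 0.0395 in CRAMP1-KO and 0.370 ± 0.0368 in WT (SD, n = 3 each; exact permutation p = 0.1). With lists reduced to equal length by p, neither window separated the genotypes.

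The rest of the pathway was taken as 13 genes with 98 regions, 47 of them shared by all libraries. They were the type IA topoisomerases TOP3A and TOP3B; TDP1, which frees TOP1 from DNA ends; MRE11, RAD50 and RBBP8, which trim blocked ends; LIG4, XRCC4, XRCC5 and XRCC6, which join broken ends; the drug pumps ABCG2 and ABCC1; and SLFN11, which sensitises cells to topoisomerase poisons. In pileup 1 of the 47 regions rose, 5 fell and 41 did not pass, where 7.34% of all shared regions were called higher and 9.78% lower, so the count of falls was near that share. The median log2 change was -0.10, where that of all shared regions was -0.07. The region that rose lay 204 kb into XRCC4 (relative pileup 0.80, 0.84 and 0.74 in CRAMP1-KO and 0.42, 0.47 and 0.55 in WT, log2 change 0.73, SE 0.13, limma adjusted p = 0.0045).

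The start of LIG4 was the only one of 9 shared start regions of these genes to be called. Its relative pileup was 1.0, 0.90 and 1.16 in CRAMP1-KO and 1.60, 1.40 and 2.19 in WT (log2 change -0.74, SE 0.17, limma adjusted p = 0.014), and a region 2.78 kb further in fell as well (log2 change -0.63, SE 0.14, limma adjusted p = 0.015). LIG4 lies where much of the surrounding chromosome 13 was lower: of the 86 shared regions within 2 Mb, 60.5% were called lower, with a median log2 change of -0.60. In ABCC1, 2 regions 49.0 and 70.2 kb into the gene fell (log2 changes -0.49 and -0.62, SE 0.14 and 0.11, limma adjusted p = 0.032 and 0.0043), in surroundings with a median of -0.23.

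A region in the SLFN11 window lay 27.1 kb from the start, past the 3′ end of the gene. It was the only region of that window with a peak in all 6 libraries, so the SLFN11 start was not fitted. The pileup of this region was 12, 12 and 23 in CRAMP1-KO and 39, 28 and 26 in WT. The relative pileup was 0.20, 0.19 and 0.24 in CRAMP1-KO and 0.40, 0.32 and 0.49 in WT (log2 change -0.93, SE 0.16, limma adjusted p = 0.0042), while the median of its surroundings was 0.01. The covered share of the SLFN11 window was 4.49 ± 1.16 in CRAMP1-KO and 13.6 ± 2.99 in WT (SD, n = 3 each; exact permutation p = 0.1). Across the 13 windows the covered share was lower without overlap in 3 (LIG4, ABCC1 and SLFN11) and higher in 0, and the peak share was higher in 1 (XRCC6) and lower in 0; of 100-kb tiles, 7.88% were lower in covered share and 9.44% higher in peak share. A region in ABCG2 had a peak in 3 of 3 CRAMP1-KO libraries and 0 of 3 WT libraries, with a pileup of 21, 35 and 53, and a region in RAD50 had a peak in 0 of 3 CRAMP1-KO libraries and 3 of 3 WT libraries, with a pileup of 26, 32 and 21. Each pattern was seen in 1 of 98 regions, near the 0.767% and 1.14% of all regions. None of the 47 widths was called.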

How the data were processed

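The authors deposited 1 peak list per library. Per the submitters' processing notes, the tools were MACS3, BWA 0.7.17-r1188, cutadapt 3.4 and bcl2fastq 2.20.0 and the build was hg19. Not given in the sources used here are the calling settings, the removal of duplicates and any read shift, each of which could change pileups and widths. The deposited columns are a score, a fold enrichment (the ratio of summit pileup to local background), −log10 p and −log10 q; they are the authors' own values. Total reads are unknown, so no counting interval is given.

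Pileup and background were solved from fold and Poisson p; all pileups were whole within 0.01. Overlapping peaks (at least 1 bp) were merged. Log2 pileup of the strongest summit and log2 covered width, centred on each library's median, were fitted with limma 3.58.1 in R 4.3.3, two-sided. A region absent from a list has no value, and such regions were not fitted. Gene windows were compared by two-sided exact permutation over 20 label assignments. Python 3.11.15 with pandas 2.3.3, numpy 2.4.6 and scipy 1.17.1 did the rest, and the steps were tested on simulated data.

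Members and lists were chosen with earlier results of these data known. Named regions were every start region, the strongest shared region of each gene, every called region and every region with a peak in 3 libraries of one genotype and 0 of the other; others were named after their values were seen. No hg19 annotation was used. RefSeq of GRCh38.p14 gave promoters and neighbouring starts by distance. Gene lengths differed from it by at most 0.889 kb, at ABCB1. Alternatives were other scalings, q limits, flanks, overlap rules, variance priors, lists of equal length, leaving out each library and a replicate block.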

Additional observations from a re-analysis of the deposited data

How the results depend on the processing

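Over all shared regions, 15833 pileups were called, against 23026 with a variance prior that follows strength, 10416 with scaling by the lowest background and 9103 to 11610 without 1 library. The 3 calls at the members held in a count of 3 with the replicate block and with quantile scaling, fell to 0 with −log10 q of at least 10 in every library, where the 3 were not tested, and became 6 with the prior that follows strength, the further 3 being lower (TOP1 and TDP2 starts and the KIAA0319 start), where 14370 of all 92505 regions were called lower, a like share; without 1 library there were 2 to 3 calls, and without CRAMP1-KO replicate 2 they included a TOP2B region 72.2 kb from the start, called lower (log2 change -0.45, limma adjusted p = 0.044). Over all calls of width, 100 became 39 with the prior that follows strength and 0 with the replicate block or without any 1 library (limma; 10454 regions had an unadjusted p of at most 0.05 with the block and 8919 to 10691 without 1 library). Windows whose covered share did not overlap numbered 1, but 0 with −log10 q of at least 10 or lists of equal length and 1 to 3 without 1 library; without flank or with 2 kb the 1 window was ABCB1, higher, and not TOP2A. For the peak share, 2 windows became 1 with flanks of 0 or 2 kb or −log10 q of at least 5 or 10, 0 with lists of equal length, and 2 to 4 without 1 library. Width changes that turned positive were those of the TOP1 start (0.0782 without centring, -0.1545 to 0.053 without 1 library and 0.0183 with quantile scaling), the TDP2 start (0.0227 without centring), the ZNF451 start (0.0212 without centring) and the proximal ABCB1 start (0.0004 without centring), none of them called; without centring the median width change of all shared regions was 0.09, against -0.04 with it. Same-numbered libraries deviated together little from the mean of their genotype (r = 0.0556, 0.0622 and -0.0903). With 3 libraries per genotype this cannot decide whether same-numbered libraries were prepared together, which the labels do not state. The replicate block gave 13808 pileup calls. Weak regions with pileups of about 10 to 30 limit what can be told, since a region just under the calling limit has no value.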

Other observations

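Some sites of these genes were listed in part of the libraries. A region 70.8 kb from the TOP2B start, past the gene's 3′ end, had a relative pileup of 0.49, 0.40 and 0.38 in CRAMP1-KO and of 0.24 and 0.26 in WT replicates 1 and 2, with no peak in WT replicate 3. A region 60.5 kb into TOP2B had a peak in CRAMP1-KO replicates 2 and 3, with pileups of 23 and 27, and in no WT library. A region 65.7 kb into TOP1 had a peak in no CRAMP1-KO library and in WT replicates 1 and 3, with pileups of 24 and 13. Near the start of RUNDC3B, a gene that starts inside ABCB1 and runs the other way, a weak peak was listed in CRAMP1-KO replicates 1 and 3, with pileups of 11 and 12, and another, on the other side of that start and inside RUNDC3B, only in WT replicate 1. These regions could not be fitted, since a value is missing wherever no peak was listed, and they were chosen after their values were seen.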
